A study of Mus musculus with 6 samples.

Results

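The circular RNAs (circRNAs) of 2 glycogen metabolism genes, Gbe1 and Phkb, were followed through the differentiation of mouse brown preadipocytes. CircRNAs are closed by a back-splice, which joins the end of a downstream exon to the start of an upstream one. The circRNAs were chosen by position on mm9. They lie wholly on the plus strand within chr16:70310000-70570000 (Gbe1) or chr8:88360000-88590000 (Phkb). The rule found 12 of the 3869 circRNAs listed, 3 of Gbe1 and 9 of Phkb, and 0 other circRNAs on either strand touched these windows. Both genes drew attention because some of their circRNAs were called between day 8 and day 0. Values of day 8 against day 0, the number of calls included, are therefore a description, with no p-value, and support nothing here. The comparisons of day 4 with day 0 and of day 8 with day 4 share libraries with it, so their p-values are not independent of the choice. Every listed circRNA was above 0 in both libraries of 1 or more days, and 6 of the 12 met this on 1 day alone, against 43.4% of the whole table. For those 6 a difference from that day is bound up with being listed, so their values are given without a test. The sum of each gene includes them, so the tests of the sums are not free of this selection.

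The cells were stromal vascular cells of C57BL/6 mice that were 6 weeks old, and the labels name the depot inguinal BAT. Libraries were taken at day 0 (proliferating cells), at day 4 (after induction with insulin, dexamethasone and 3-isobutyl-methylxanthine) and at day 8 (after a further phase with insulin and T3), with 2 libraries a day. Ribosomal and linear RNA had been removed from all of them. No label ties a replicate to its own culture or animal, and the p-values thus cover the spread between these libraries alone, which may be technical. The labelled cell type was not checked against markers, because the table names no host genes. Values are in CPM, the back-splice reads of a circRNA scaled so that all listed circRNAs of a library sum to 1e+06. Each library came to between 40384 and 45733 reads, inferred from the step between values. In such bulk samples, fewer cells of a type and less RNA per cell cannot be told apart. Because CPM is a share of all listed circRNAs, a change is relative to the other circRNAs of the library.

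Glycogen is a branched glucose store, and brown adipocytes hold it and draw on it beside their lipid. Gbe1 encodes the glycogen branching enzyme, which moves short glucan chains to make the branch points. Phkb encodes the beta subunit of phosphorylase kinase, a regulatory subunit of the enzyme that activates glycogen phosphorylase and so starts glycogen breakdown. One host thus serves the building and the other the breakdown of the store. A circRNA is made from the same precursor RNA as the messenger RNA, but its level is no measure of that messenger or of the protein.

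All 12 circRNAs could be placed on exons by their genomic span. No mm9 annotation was used, so the distance between the joined ends was compared with every pair of an exon start and an exon end in the GENCODE M21 (GRCm38) models of the same gene. Each of the 12 spans matched exactly 1 pair, and circRNAs that shared an end shared its exon. No coordinate was carried between builds. Exons are numbered in Gbe1-201 (17 exons) and Phkb-201 (32 exons). Of the 9 Phkb circRNAs, 7 had both ends in Phkb-201. The other 2 began at a 58-nt exon that lies between exons 2 and 3 and is annotated in 1 of the 9 Phkb transcripts, Phkb-209, a transcript classed for nonsense-mediated decay.

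The junctions below are shown because they are what the reads counted, and because the circRNAs of each gene reuse the same ends. Each is 60 bases long, read 5′ to 3′ as DNA from the GENCODE M21 transcripts. Lower case marks the last 30 bases of the downstream exon and capitals mark the first 30 bases of the upstream exon that follows it across the back-splice.
Gbe1 exon 7 to exon 4 (mmu_circ_0006376, chr16:70433790-70441564): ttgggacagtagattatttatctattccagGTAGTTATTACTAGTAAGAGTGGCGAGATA
Gbe1 exon 7 to exon 3 (chr16:70401979-70441564): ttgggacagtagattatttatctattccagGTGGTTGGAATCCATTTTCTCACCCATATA
Phkb exon 7 to exon 3 (mmu_circ_0001707, chr8:88399533-88425856): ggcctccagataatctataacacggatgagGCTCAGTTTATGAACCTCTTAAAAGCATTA
Phkb exon 5 to exon 3 (mmu_circ_0015075, chr8:88399533-88403709): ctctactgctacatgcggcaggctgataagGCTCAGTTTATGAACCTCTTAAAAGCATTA
Phkb exon 7 to the 58-nt exon (chr8:88372573-88425856): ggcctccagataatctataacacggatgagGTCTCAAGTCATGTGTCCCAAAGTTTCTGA
Phkb exon 15 to exon 10 (mmu_circ_0015081, chr8:88464740-88494896): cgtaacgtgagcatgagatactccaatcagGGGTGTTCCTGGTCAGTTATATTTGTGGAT

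The lower-case parts of the 2 Gbe1 junctions are the same, as are those of the 2 Phkb junctions that leave exon 7, so these pairs differ in the upstream exon alone. The capitals of the 2 Phkb junctions that enter exon 3 are the same, so that pair differs in the downstream exon alone. All 12 circRNAs shared an end with another listed circRNA, against 1893 of 3869 (48.9%) in the whole table. Of the 2511 sets of overlapping circRNAs on 1 strand, 1801 hold 1 circRNA, which can share no end. Gbe1 and Phkb hold 3 and 9, so these shares are not like for like. Their spans were long, with a median of 43098 bp and a range of 4177 to 122324 bp, against a median of 7871 bp in the whole table. Of the 12, 7 had a circBase catalogue number, against 63.1% in the whole table.

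**Figure D1:**
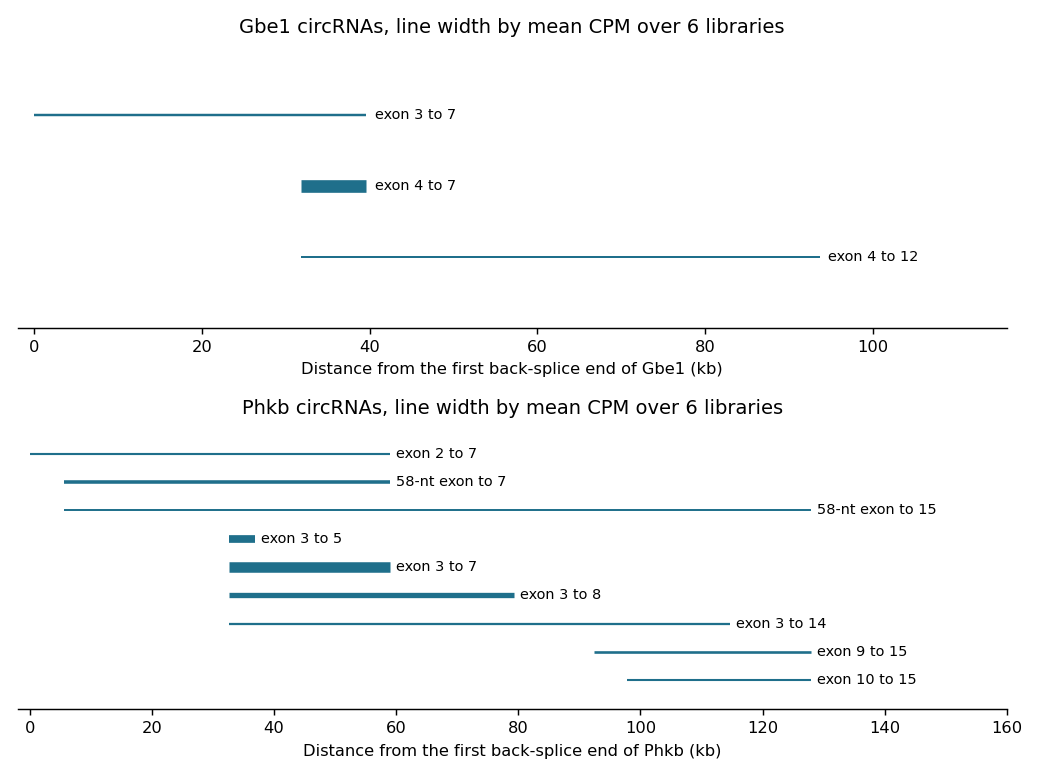
Genomic span of each circRNA of Gbe1 (top) and Phkb (bottom), as distance in kb from the first back-splice end of the gene, with a line width that grows with the mean CPM over the 6 libraries. The widest lines are the exon 4 to 7 circRNA of Gbe1 and the exon 3 to 7 circRNA of Phkb, and the 4 Phkb circRNAs that start at exon 3 include 3 of the 4 widest of that gene.

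Gbe1 circRNA increased at both steps. The sum of its 3 circRNAs was 371 and 436 CPM at day 0, 1356 and 1659 CPM on day 4, and 3258 and 3293 CPM at day 8. The means were 404 ± 45.7, 1507 ± 215 and 3275 ± 24.3 CPM (SD, n = 2 each). The values of the 3 days did not overlap, while 20.9% of all loci lay wholly higher at day 4 than at day 0 and 27% wholly higher at day 8 than at day 4. At day 4 the sum was higher than at day 0 by a log2 fold change of 1.84 (SE 0.19, limma adjusted p = 0.00381 over 2511 loci, where a locus is a set of overlapping circRNAs of 1 strand). It was higher in 2 of 2 libraries, and 3.9% of loci were called higher in that comparison, called meaning an adjusted p under 0.05. This call held in all 13 alternatives, with adjusted p between 0.0022 and 0.04996.

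At day 8 the Gbe1 sum was higher than at day 4 by a log2 fold change of 1.15 (SE 0.19, limma adjusted p = 0.0154), again in 2 of 2 libraries. In that comparison 6.49% of loci were called higher, and the median log2 fold change over all loci was 0.12. The call was lost when a day 4 library was left out (adjusted p = 0.0701 without replicate 1 and 0.0534 without replicate 2), and likewise for day 8 (0.0795 without replicate 1 and 0.0931 without replicate 2). It was also lost among loci that reached 10 reads in 2 or more libraries (0.0534). The log2 fold change at day 8 against day 0 was 2.99, the difference for which the gene was noticed.

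**Figure D2:**
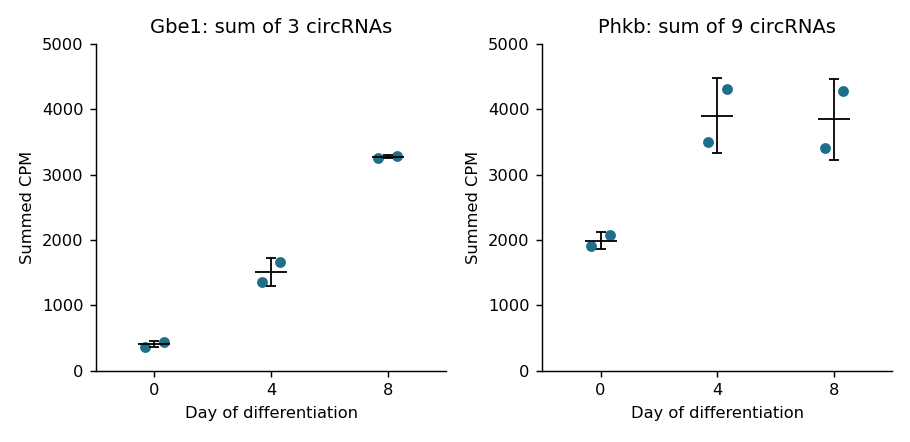
Summed CPM of the 3 Gbe1 circRNAs (left) and the 9 Phkb circRNAs (right) by day of differentiation. Points are libraries, horizontal bars are means and vertical bars are ± 1 SD (n = 2). The Gbe1 sums of the 3 days do not overlap, while the Phkb sums of days 4 and 8 overlap and both lie above day 0.

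Nearly all of the Gbe1 signal came from 1 circRNA. This was mmu_circ_0006376, which joins exon 7 to exon 4 and holds 563 nt if all annotated exons between are kept. Its day 0 libraries had 371 and 436 CPM (16 and 18 reads), its day 4 libraries 1290.1 and 1609.5 CPM (59 and 65 reads), and its day 8 libraries 2964 and 2961 CPM (121 and 125 reads). The days did not overlap. By mean CPM it ranked 513 of the 3869 circRNAs at day 0, 113 at day 4 and 34 at day 8. At day 4 it was higher than at day 0 by a log2 fold change of 1.79 (SE 0.20, limma adjusted p = 0.00396 over 3869 circRNAs). Fitted on days 0 and 4 alone it was not called (0.064), and under the other 12 alternatives it was. Against day 4 it was higher at day 8 by 1.06 (SE 0.20, adjusted p = 0.0258). That call was lost when either day 4 library (0.0866 and 0.0574) or either day 8 library (0.104 and 0.124) was left out, and among circRNAs that reached 10 reads in 2 or more libraries (0.09).

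The other 2 Gbe1 circRNAs were listed only after induction, and both reuse an end of mmu_circ_0006376. The circRNA that joins exon 7 to exon 3 had a listed 0 in both libraries of day 0, then 65.6 and 49.5 CPM on day 4 (3 and 2 reads), then 245 and 213 CPM at day 8 (10 and 9 reads). It passed neither the test of day 4 against day 0 (limma adjusted p = 0.327) nor that of day 8 against day 4 (0.236). The circRNA that joins exon 12 to exon 4 (chr16:70433790-70495644) spans 61855 bp. It was listed at 0 at days 0 and 4 and had 49.0 and 118 CPM at day 8, from 2 and 5 reads. It was thus listed through day 8 alone.

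Within the Gbe1 sum, the share of mmu_circ_0006376 was 100% in both day 0 libraries, 95.2% and 97.0% at day 4, and 91.0% and 89.9% at day 8. The remainder at day 8 was the exon 3 to 7 circRNA (7.52% and 6.47%) and the exon 4 to 12 circRNA (1.50% and 3.60%). The day 0 libraries held 16 and 18 Gbe1 reads in all, and the table has no value of 1 read. Whether the other 2 circRNAs were absent at day 0 or below the limit of listing was not tested.

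Phkb circRNA was higher at day 4 than at day 0, and its day 8 values overlapped those of day 4. The sum of its 9 circRNAs was 1903 and 2082 CPM at day 0, 3499 and 4309 CPM on day 4, and 3405 and 4288 CPM at day 8. The means were 1993 ± 127, 3904 ± 573 and 3846 ± 624 CPM (SD, n = 2 each). Both later days lay above day 0 in 2 of 2 libraries, which held for 20.9% of all loci at day 4 and 26.9% at day 8. The log2 fold change of day 4 against day 0 was 1.01 (SE 0.18, limma adjusted p = 0.0267 over 2511 loci), and 3.9% of loci were called higher. The call was lost whichever library was left out: replicates 1 and 2 of day 0 (adjusted p = 0.188 and 0.12), of day 4 (0.104 and 0.16) and of day 8 (0.0557 and 0.0601). It was also lost when days 0 and 4 were fitted alone (0.0638).

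Between day 4 and day 8 the Phkb sum differed by a log2 fold change of 0.020 (SE 0.18, limma adjusted p = 0.997), whose sign turned without scaling (-0.023) and without day 4 replicate 1 or day 8 replicate 2. The log2 fold change of day 8 against day 0 was 1.03. The Gbe1 sum was 0.195 and 0.209 times the Phkb sum at day 0, 0.387 and 0.385 times at day 4, and 0.957 and 0.768 times at day 8. These ratios are within a library and do not depend on the scaling. Whether the 2 genes differ in their change was not tested.

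Exon 3 was the main upstream end of the Phkb circRNAs. The 4 circRNAs that start there made up 78.0% and 84.9% of the gene's CPM at day 0, 85.0% and 92.0% at day 4, and 77.0% and 86.7% at day 8. The most abundant of them, mmu_circ_0001707, ends at exon 7. It had 905 and 629.6 CPM at day 0, 1312 and 1783 CPM on day 4, and 1421 and 1706 CPM at day 8. Day 0 was the lowest, with no overlap, but the test of day 4 against day 0 was not passed (log2 fold change 1.03, SE 0.25, limma adjusted p = 0.0695).

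The shortest, mmu_circ_0015075, spans 4177 bp and holds exons 3 to 5. It had 325 and 920.1 CPM at day 0, 875 and 1312 CPM on day 4, and 661 and 1161 CPM at day 8. The days overlapped, and the day 0 replicates were far apart (14 and 38 reads). It passed neither test (adjusted p = 0.39 and 0.873, limma).

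The third, mmu_circ_0001708, joins exon 8 to exon 3. It had 255 and 218 CPM at day 0, 787 and 792 CPM on day 4, and 416 and 663 CPM at day 8. Day 4 was the highest, without overlap with either other day. It rose at day 4 against day 0 by a log2 fold change of 1.63 (SE 0.31, limma adjusted p = 0.0309), in 2 of 2 libraries. The call was lost without either day 0 library (0.144 and 0.135), without either day 4 library (0.142 and 0.137), when days 0 and 4 were fitted alone (0.064) and among circRNAs that reached 10 reads in 2 or more libraries (0.064). Its value at day 8 against day 4 was -0.51 (SE 0.31, adjusted p = 0.455). Its share of the Phkb sum was 13.4% and 10.5% at day 0, 22.5% and 18.4% at day 4, and 12.2% and 15.5% at day 8.

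The last of the 4, mmu_circ_0015077, runs from exon 3 to exon 14 and spans 82021 bp. It was listed at 0 in both day 0 libraries, at 0 and 74.3 CPM on day 4 and at 122 and 189.5 CPM at day 8, from at most 8 reads. Only at day 8 were both of its libraries above 0.

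**Figure D3:**
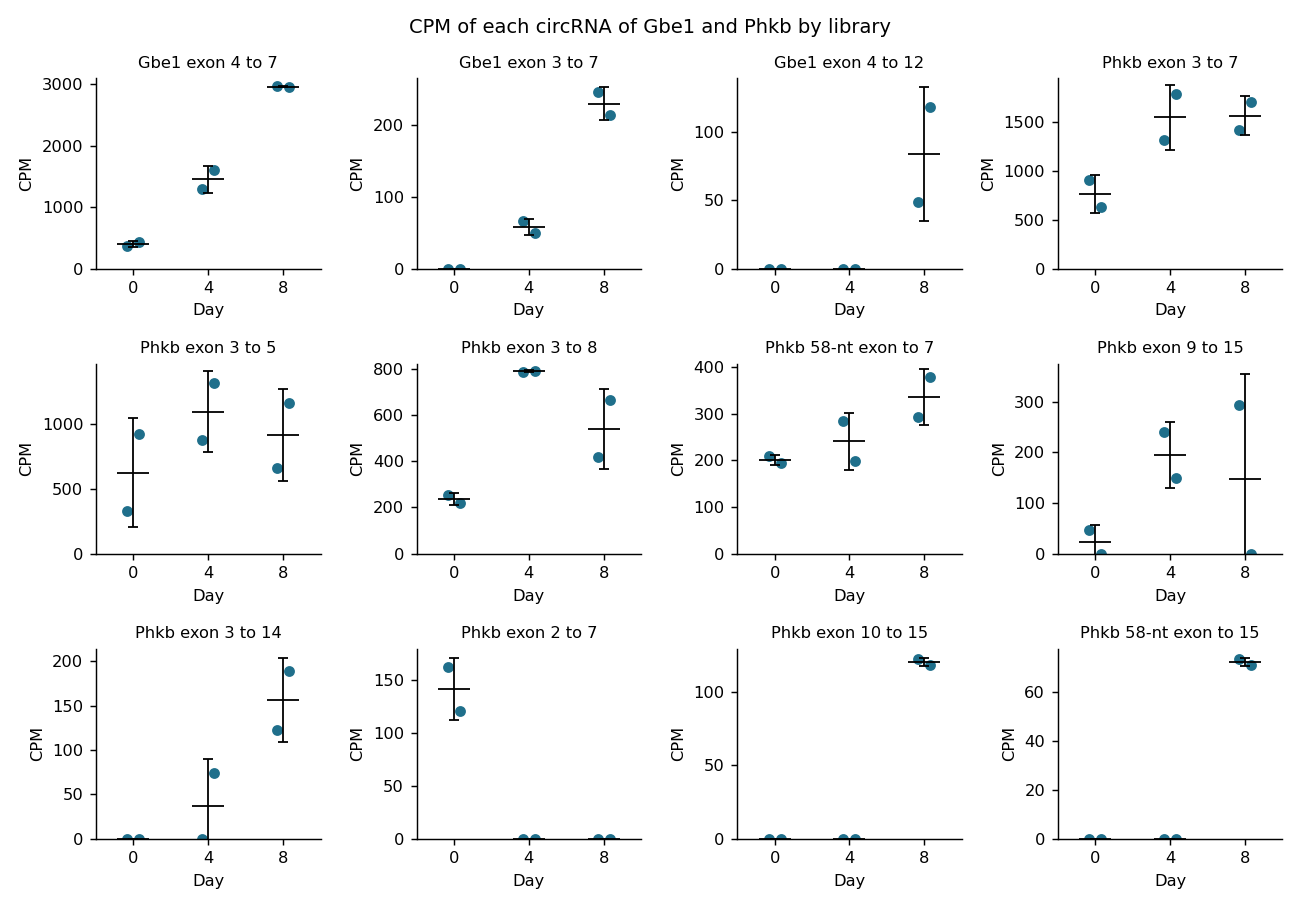
CPM of each circRNA by day, with the 3 Gbe1 circRNAs first and the 9 Phkb circRNAs after them, each gene ordered by mean CPM and each panel with its own linear axis. Points are libraries, horizontal bars are means and vertical bars are ± 1 SD (n = 2), drawn from 0 upwards. The exon 4 to 7 circRNA of Gbe1 is higher on each later day, the exon 3 to 8 circRNA of Phkb is highest at day 4, and the exon 2 to 7 circRNA of Phkb is above 0 at day 0 alone.

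Exon 7 of Phkb was joined to 3 upstream ends. Besides exon 3, these were exon 2, which holds the start of the coding sequence of Phkb-201, and the 58-nt exon. The exon 2 to 7 circRNA (chr8:88366903-88425856) had 162 and 121 CPM at day 0, from 7 and 5 reads, and was listed at 0 in all 4 later libraries. It was listed through day 0 alone. The circRNA from the 58-nt exon to exon 7 was listed in every library, with 209 and 194 CPM at day 0, 284 and 198 CPM on day 4, and 294 and 379 CPM at day 8. It passed neither test (adjusted p = 0.768 and 0.56), and its log2 fold change at day 4 (0.25) turned to -0.003 without day 4 replicate 1. It came to 66 reads in all, the fourth most of the gene, though GENCODE M21 gives its first exon in 1 transcript alone.

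Exon 15 was the other end that several Phkb circRNAs used. The 3 circRNAs that end there summed to 46.4 and 0 CPM at day 0, 241 and 149 CPM on day 4, and 490 and 189.5 CPM at day 8. One of them, mmu_circ_0001710 (exons 9 to 15), had 46.4 and 0 CPM, then 241 and 149 CPM, then 294 and 0 CPM on the same days. At day 8 its replicates thus disagreed, with 12 reads in replicate 1 and a listed 0 in replicate 2, and day 4 was the only day with both libraries above 0.

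The other 2 circRNAs that end at exon 15 were listed at day 8 alone. The exon 10 to 15 circRNA, mmu_circ_0015081, had 122 and 118 CPM there, from 5 reads in each library. The circRNA from the 58-nt exon to exon 15 (chr8:88372573-88494896) had 73.5 and 71.1 CPM, from 3 reads in each library. In every library the smallest value above 0 was 2 reads, a step being taken as 1 read. The 3 reads lie close to that, and whether a 0 can stand for 1 read was not tested.

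**Figure D4:**
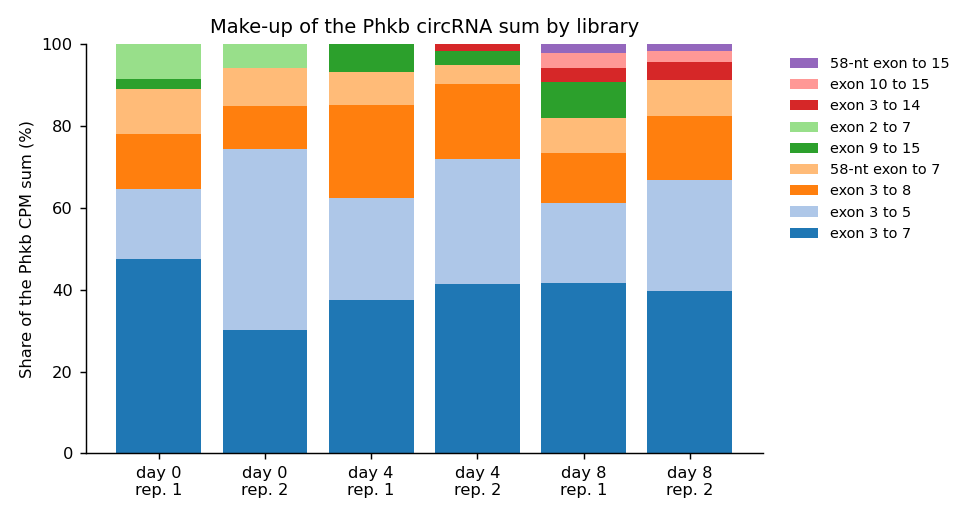
Share of the Phkb CPM sum held by each of its 9 circRNAs, in percent, for the 6 libraries in order of day. The exon 3 to 7 circRNA holds 30.2% to 47.6% in each library, the exon 2 to 7 circRNA appears at day 0 alone, and 2 circRNAs that end at exon 15 appear at day 8 alone.

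Over both genes, 2 of the 12 circRNAs were called higher and 1 lower at day 4 against day 0, where 4.01% and 4.21% of all 3869 circRNAs were called. The 1 lower was the exon 2 to 7 circRNA of Phkb, listed through day 0 alone. At day 8 against day 4, 4 of 12 were called higher and 0 lower (limma, with 5 of 12 at an unadjusted p under 0.05), where 6.1% and 3.54% of all were called. Of the 4, 3 were listed through day 8 alone. Among the 6 circRNAs that reached 10 reads in 2 or more libraries the count was 0 (limma, 1 at an unadjusted p under 0.05). Under that filter 14 of all 1368 circRNAs were called. These counts are a description of what was listed and support no change of their own. At day 8 against day 0, the comparison that chose the genes, 6 were called higher and 1 lower, where 7.52% and 4.86% were called, and nothing is read from that count. The median log2 fold change of the 12 was 0.83 at day 4 against day 0 and 0.76 at day 8 against day 4. Over all circRNAs it was 0 and 0.06. The 12 include the 6 listed through 1 day alone, and the genes were chosen with these same libraries. Nothing is therefore read from these medians.

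Lack of overlap between days was common in this table. The values of day 4 lay wholly above day 0 for 5 of the 12 and wholly below for 1, while 21.7% and 24.5% of all circRNAs did so. Those of day 8 lay wholly above day 4 for 7 and wholly below for 1, against 24.6% and 22% of all. The same selection by detection bears on these counts.

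The loci whose CPM followed those of each gene most closely were named by Pearson's r of log2 values over the 6 libraries, among 1139 loci that reached 10 reads in 2 or more libraries. The 6 points are the same libraries for every locus, and r is given as a description. For Gbe1 they were a locus of 3 circRNAs led by mmu_circ_0000115 (chr1:169157863-169167779, r = 0.992), one of 6 led by mmu_circ_0001077 (chr2:139803343-139883235, r = 0.988) and one of 5 on chromosome 10 (106460710 to 106522007, r = 0.986), all on the minus strand. Their size of change differed. The locus of mmu_circ_0000115 had 829 ± 8.51, 1121 ± 131 and 1445 ± 33.8 CPM at days 0, 4 and 8 (SD, n = 2), while that on chromosome 10 was listed at 0 at day 0 and had 5218 and 4122 CPM at day 8. For Phkb they were a locus of 3 led by mmu_circ_0000968 (chr19:57826120-57871993, plus strand, r = 0.982), one of 2 led by mmu_circ_0004216 (chr12:79605604-79738566, plus strand, r = 0.968) and mmu_circ_0001182 (chr4:9510959-9538085, minus strand, r = 0.968). The locus of mmu_circ_0000968 had 1412 ± 160, 2969 ± 179 and 2853 ± 120 CPM (SD, n = 2). The sums of Gbe1 and Phkb themselves had r = 0.911, though at day 8 against day 4 their log2 fold changes were 1.15 and 0.020.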

How the data were processed

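The submitters' processing notes name HISAT2 2.2.0, FastQC 0.11.9 and the build mm9. The circRNA caller was not given in the sources used here. One table was deposited by the authors, who gave CPM values in 6 columns, each summing to 1e+06. Within a library all values were whole multiples of 1 step (tolerance 0.001 of a step). The smallest was 2 steps, and a step was taken as 1 read, so inferred reads are descriptive and no count model was run. From the deposited CPM, values were scaled by TMM factors and fitted over the 3 days with limma 3.58.1 (R 4.3.3, mean-variance trend) on log2(CPM + 43.7), 43.7 being the smallest non-zero value. Low values therefore have understated fold changes. Adjusted p-values are Benjamini-Hochberg over all 3869 circRNAs or 2511 loci. Exact permutation of 2 against 2 libraries cannot go below p = 0.333. Starts were raised by 1 to count from 1. Singly described were the 5 circRNAs of highest mean CPM per gene and any other called one, and the rest were added. No test is given for those above 0 in both libraries of 1 day alone. The procedure was tested on simulated data, with changes planted only in circRNAs of 10 or more reads on average. The rule that both libraries of a day be above 0 was not simulated. That test therefore does not cover circRNAs of fewer reads or those listed through 1 day alone. The members and lists were chosen with earlier results of these data known. A list of other glycogen genes was not analysed here, since it needs mm9 gene names.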

Additional observations from a re-analysis of the deposited data

How the results depend on the processing

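The call of the Gbe1 sum at day 4 against day 0 held in all 13 alternatives. The Gbe1 sum at day 8 against day 4 kept its log2 fold change of 1.15 among features that reached 10 reads in 2 or more libraries but lost its call (adjusted p = 0.0534), and with a library left out it lay between 1.04 and 1.25 (adjusted p = 0.03 to 0.0931). The Phkb sum at day 4 against day 0 stayed at 1.01 in the fit of 4 libraries but was not called (0.0638), and lay between 0.90 and 1.12 with a library left out. At day 8 against day 4 it lay between -0.15 and 0.22 with a library left out and at -0.023 without scaling. The log2 fold change of day 8 against day 0 was 3.13 for the Gbe1 sum with a pseudocount of 0.1 CPM, and lay between 0.86 and 1.22 for Phkb with a library left out. In the fit of 4 libraries calls at day 4 against day 0 fell from 318 to 37 of all 3869. Of the 12 circRNAs, 0 were called there (limma, 5 at an unadjusted p under 0.05). With the 10-read filter, 6 of the 12 could be tested. At day 4 against day 0, 1 was called (48 of all 1368). At day 8 against day 4, 0 were called (14 of all), with 1 at an unadjusted limma p under 0.05. As a description, 1 was called at day 8 against day 0 (90 of all). With a library left out the counts were 2 to 3, 2 to 3 and 4 to 7. These settings hold fewer circRNAs or samples, and why calls were lost was not tested. Among single circRNAs, signs turned with a library left out for 4 values that were not called. At day 4 against day 0, chr8:88372573-88425856 lay between -0.0028 and 0.50. At day 8 against day 4, mmu_circ_0015075 lay between -0.62 and 0.18, mmu_circ_0001707 between -0.11 and 0.24 and mmu_circ_0001710 between -2.43 and 0.56.

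Whether the replicate numbers pair the libraries cannot be told here. Deviations from the day means correlated by -0.003, 0.04 and -0.01 between same-numbered libraries of 2 days, over 1248 circRNAs. With 2 libraries a day, noise between libraries could also bring such values near 0, so they do not show that pairing was absent. With a replicate block 2 circRNAs were called at day 4 against day 0 (308 of all 3869), and mmu_circ_0001708 no longer was (0.0537). At day 8 against day 4, 4 were called (352 of all). All but mmu_circ_0006376 were listed through 1 day alone. The log2 fold changes of the sums were the same. For Gbe1 they were 1.84 and 1.15, both called, and for Phkb 1.01, called, and 0.020, not called in either fit. The 2 planned count-model tests were not run, because the smallest value of each library is 2 steps. Members under about 10 reads are limited by depth.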
